A study of Sus scrofa with 6 samples.

Results

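The 10 genes described here encode proteins of the Z-disc and of the stress response attached to it: ANKRD1, ANKRD2, CSRP3, XIRP1, XIRP2, MYOZ1, MYOZ3, MYOT, LDB3 and TCAP. They were picked by symbol for what their proteins do, not for a measured value, out of 31908 Ensembl genes in the deposited transcript table. Earlier results of these data were known when they were picked. All 10 were found and all 10 passed the minimum mean level of 0.1 FPKM (fragments per kilobase of transcript and per library size), which left 12741 protein-coding genes for testing. The tissue was the longissimus dorsi (LD) muscle of 6 Laiwu pigs, a Chinese breed with fatty meat. All 6 were castrated males, and their age was not given in the sources used here. The S-H group held 3 pigs with very high intramuscular fat (IMF) content, LW63, LW70 and LW119, and the S-L group held 3 pigs with very low IMF content, LW82, LW88 and LW90, with 1 RNA library per pig.

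The Z-disc is the plate at each end of a sarcomere in which the thin filaments of neighbouring sarcomeres are cross-linked by alpha-actinin and in which titin is anchored. It carries tension and also hosts signalling proteins, among them the phosphatase calcineurin. Several of its partner proteins are best known because their transcripts respond to stretch, injury or remodelling of the fibre, whereas others are structural parts of the disc itself. The members are therefore taken up by role: the ankyrin-repeat proteins ANKRD1 and ANKRD2, the LIM protein CSRP3, the Xin-repeat proteins XIRP1 and XIRP2, the calsarcins MYOZ1 and MYOZ3, and the scaffold proteins MYOT, LDB3 and TCAP.

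Muscle markers marked the libraries as skeletal muscle. The 5 defining muscle markers that were found (of 8 looked for) were present in every pig, with a summed level between 8432 and 13131 FPKM. Adipocyte markers were higher in S-H: 7 of 11 passed the test described below, against 1.35% of all tested genes. Their summed level was 1436, 822 and 532 FPKM in LW63, LW70 and LW119 against 474, 363 and 379 FPKM in LW82, LW88 and LW90. The slow-fibre markers summed to between 9654 and 11565 FPKM in S-H and between 6465 and 9979 FPKM in S-L, and the fast-fibre markers to between 15048 and 21840 FPKM in S-H and between 17650 and 35822 FPKM in S-L, and both ranges overlapped. RNA came from whole muscle, so fewer cells of a type and less RNA per cell cannot be told apart. The part of fat or fibre type in the values below was not tested, although fits with a fibre-type score are given further on. The median of all tested genes was itself 0.21 higher in S-H on the log2 scale, and 74.1% of tested genes had a positive log2 fold change.

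The members were among the more abundant transcripts of the muscle. MYOZ1 had the highest mean over the 6 pigs, 1596 ± 507 FPKM (SD), and ranked 18 of the 12741 tested genes. TCAP followed with 981 ± 522 FPKM, then ANKRD2 with 466 ± 334, MYOT with 403 ± 67.3, XIRP2 with 396 ± 221, ANKRD1 with 217 ± 257, LDB3 with 162 ± 39.7, MYOZ3 with 158 ± 56.9, XIRP1 with 130 ± 95.1 and CSRP3 with 92.4 ± 63.2 FPKM. CSRP3, the lowest of the 10, still ranked 386. FPKM is a level per length, so these genes may be set in order, but only 2 of the 9 steps held in all pigs and were larger than their own SD. MYOZ1 was above TCAP in 6 of 6 pigs, by 0.77 ± 0.41 (SD) on the log2 scale, and XIRP2 was above ANKRD1 in 6 of 6 pigs, by 1.49 ± 1.12. The other neighbours in the order changed places between pigs.

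**Figure D1:**
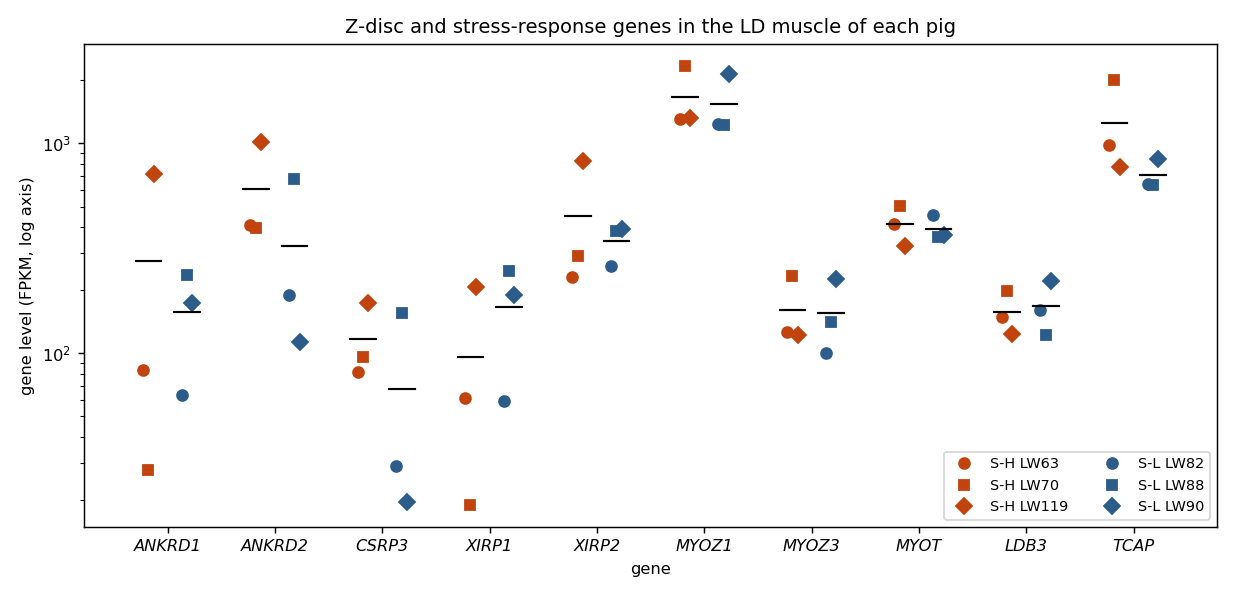
Level of each of the 10 genes in each pig, in FPKM on a log axis, with S-H pigs in orange, S-L pigs in blue, a marker shape per pig and a black line at the group mean (n = 3). The orange and blue points overlap for every gene, and the points of ANKRD1, ANKRD2, CSRP3 and XIRP1 lie farther apart within a group than those of MYOT or LDB3.

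To learn whether these genes differed with IMF content, S-H was compared with S-L by limma on log2(FPKM + 0.1), fitted over all tested genes. A gene passed if its unadjusted p was below 0.01 and its log2 fold change was 1 or more in size, which are the thresholds of the study. None of the 10 members passed (0 of 10), whereas 172 of the 12741 tested genes (1.35%) did, 148 of them higher (1.16%) and 24 lower (0.188%) in S-H. With libraries rescaled by median-ratio size factors the split was 84 higher and 55 lower. By limma 0 of 10 members had an unadjusted p below 0.05 (8.15% of tested genes did), 0 of 10 had levels that did not overlap between the groups (14.8% of tested genes), and the smallest exact permutation p among them was 0.20, where 3 pigs against 3 cannot go below 0.10. No tested gene reached an adjusted p below 0.05 in this limma fit (0%). A positive log2 fold change was found for 7 members and a negative one for 3, with a median of 0.08 against 0.21 over all tested genes, while with median-ratio scaling, which put the median of all genes at 0.01, 3 members were positive and 7 negative. With so few pigs a missed threshold does not show that the levels were alike, and the 95% interval is given with each member.

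**Figure D2:**
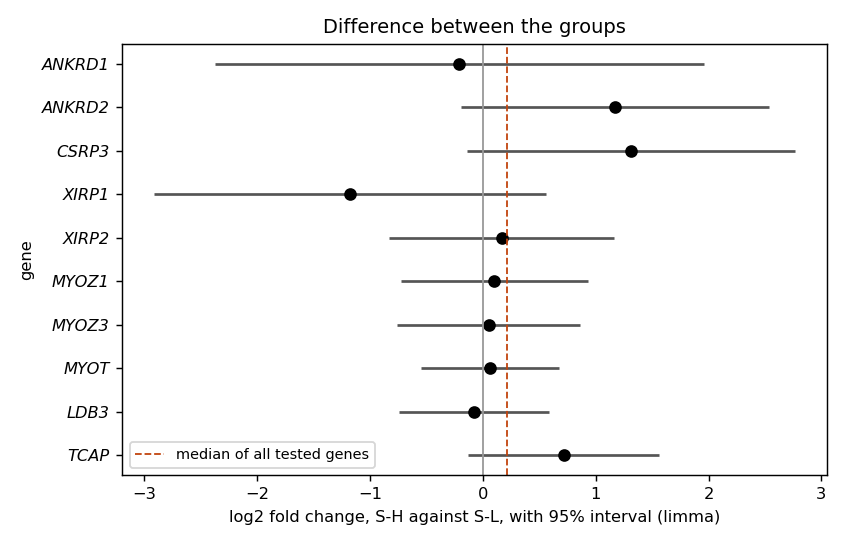
Log2 fold change of S-H against S-L for each of the 10 genes (points) with the 95% interval from limma (lines), and the median of all tested genes (dashed line, 0.21). Every interval crosses 0, and the intervals of ANKRD1, ANKRD2, CSRP3 and XIRP1 are the widest.

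ANKRD1, the cardiac ankyrin repeat protein, binds titin in the I-band and enters the nucleus, and its transcript is known to rise in stretched or injured muscle. It measured 83.5, 27.8 and 717 FPKM in LW63, LW70 and LW119 and 63.3, 235 and 173 FPKM in LW82, LW88 and LW90. The highest and the lowest pig were both S-H, 25.7-fold apart, and LW119 alone held 55.1% of the sum over the 6 pigs. S-H against S-L gave a log2 fold change of -0.21 ± 0.97 (SE), with a 95% interval from -2.37 to 1.96 and an adjusted p of 0.956 by limma. Single pigs set its direction: the log2 fold change was -1.51 without LW119 (adjusted p = 0.525 by limma), 0.83 without LW70, 0.18 without LW88 and 0.04 without LW63.

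ANKRD2, its relative, also binds titin and is known as a stretch-responsive protein with a preference for slow fibres. It measured 409, 394 and 1016 FPKM for LW63, LW70 and LW119 (S-H) and 189, 675 and 113 FPKM for LW82, LW88 and LW90 (S-L). LW82 and LW90 were the lowest pigs, and LW88 lay above LW63 and LW70. Its log2 fold change was 1.17 ± 0.61 (SE), with a 95% interval from -0.20 to 2.53 and an adjusted p of 0.621 by limma. Without LW88 it was 1.91 and passed (adjusted p = 0.492 by limma), whereas without LW90 it was 0.61 and without LW119 0.72.

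CSRP3, the muscle LIM protein, is a small adaptor that binds alpha-actinin and the titin cap and is known from its part in cardiac stretch sensing. Its levels were 81.4, 95.9 and 174 FPKM in LW63, LW70 and LW119 and 29.1, 155 and 19.5 FPKM in LW82, LW88 and LW90. The pigs stood in the order seen for ANKRD2 except that LW63 and LW70 changed places, with LW88 inside the S-H range and the other S-L pigs below it. The log2 fold change of 1.31 ± 0.65 (SE) was the largest positive value of the 10 members, with a 95% interval from -0.14 to 2.77 and an adjusted p of 0.618 by limma. Leaving out LW88 raised it to 2.21, which passed (adjusted p = 0.274 by limma), and leaving out LW90 lowered it to 0.72. Relative to the mean of the skeletal muscle markers of the same pig, CSRP3 (1.49, adjusted p = 0.0470 by limma) and ANKRD2 (1.34, adjusted p = 0.0711 by limma) passed with all 6 pigs. In that fit limma drew the variances of all genes close to a common value, and the SE of CSRP3 was 0.40 in place of 0.65. Those p values therefore do not measure the spread of CSRP3 or ANKRD2 between pigs, and no difference is read from them. The share of all tested genes that passed in it is not given here.

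The Xin-repeat proteins bind actin filaments and are found where fibrils attach or are being rebuilt. XIRP1 measured 61.4, 18.9 and 206 FPKM in LW63, LW70 and LW119 and 59.1, 248 and 189 FPKM in LW82, LW88 and LW90. Low and high pigs occurred in both groups, and LW70 was the lowest as it was for ANKRD1. The log2 fold change was -1.17 ± 0.78 (SE), the most negative of the 10, with a 95% interval from -2.91 to 0.56 and an adjusted p of 0.672 by limma. Without LW119 it was -2.04 and passed (adjusted p = 0.462 by limma), without LW82 it was -1.80, without LW88 -0.77 and without LW70 -0.32.

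XIRP2 measured 230, 289 and 827 FPKM for LW63, LW70 and LW119 (S-H) and 261, 383 and 389 FPKM for LW82, LW88 and LW90 (S-L). LW119 stood above the other pigs, which lay between 230 and 389 FPKM. The log2 fold change was 0.17 ± 0.45 (SE), with a 95% interval from -0.83 to 1.17, and it was -0.39 without LW119.

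The calsarcins tie calcineurin to alpha-actinin at the Z-disc, and MYOZ1 and MYOZ3 are the members of the family typical of fast fibres. MYOZ1 measured 1308, 2339 and 1318 FPKM in LW63, LW70 and LW119 and 1236, 1225 and 2150 FPKM in LW82, LW88 and LW90. MYOZ3, at a lower level, measured 126, 232 and 122 FPKM in the S-H pigs and 100.4, 140 and 227 FPKM in the S-L pigs. In both genes a pig of each group, LW70 and LW90, was high and the rest lay together. The log2 fold changes were 0.10 ± 0.37 (SE, 95% interval -0.73 to 0.93) for MYOZ1 and 0.05 ± 0.36 (SE, 95% interval -0.76 to 0.86) for MYOZ3. With median-ratio size factors the intervals were -1.24 to 1.01 for MYOZ1 and -1.21 to 0.88 for MYOZ3.

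MYOT (myotilin) links alpha-actinin, actin and filamin. It measured 414, 504 and 324 FPKM in LW63, LW70 and LW119 and 454, 357 and 364 FPKM in LW82, LW88 and LW90, and it was the steadiest of the 10 genes. Its log2 fold change was 0.06 ± 0.27 (SE), with a 95% interval from -0.55 to 0.68. LDB3, also called ZASP or Cypher, is a scaffold with a PDZ domain that binds alpha-actinin and calsarcins. It measured 149, 198 and 124 FPKM in the S-H pigs and 160, 122 and 220 FPKM in the S-L pigs, with a log2 fold change of -0.08 ± 0.30 (SE, 95% interval -0.74 to 0.58). As with MYOT, S-H and S-L values were interleaved.

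TCAP (telethonin) caps the end of titin in the Z-disc. Its levels were 980, 2013 and 772 FPKM in LW63, LW70 and LW119 and 643, 634 and 844 FPKM in LW82, LW88 and LW90. LW70 stood far above the others, LW63 above every S-L pig, and LW119 below LW90. The log2 fold change was 0.72 ± 0.38 (SE), with a 95% interval from -0.13 to 1.56, an adjusted p of 0.627 by limma and an exact permutation p of 0.20 for 3 pigs against 3. When 1 pig was left out it ranged from 0.31 (without LW70) to 1.0 (without LW119, adjusted p = 0.494 by limma).

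The members divided by how much they varied between pigs of the same group. The spread was measured as the residual SD of log2(FPKM + 0.1) within the groups. ANKRD1, ANKRD2, CSRP3, XIRP1 and XIRP2 had SDs from 0.733 to 1.82, which placed them between the 89.8th and the 99.7th percentile of all tested genes. MYOZ1, MYOZ3, MYOT, LDB3 and TCAP had SDs from 0.263 to 0.558, between the 23.0th and the 77.4th percentile. The highest pig was 3.60-fold to 25.7-fold above the lowest in the first set and 1.55-fold to 3.18-fold in the second. The first set was no less abundant than the general run of genes, with means from 92.4 to 466 FPKM, and among the 1274 tested genes with the highest means (at least 25.7 FPKM) the median SD was 0.342. Among these 1274 genes the percentiles ran from 92.0 to 99.4 in the first set and from 31.3 to 82.4 in the second. The 10 members together had a median SD of 0.646 against 0.383 over all tested genes. The 34 other Z-disc proteins of the list had a median SD of 0.452 and reached 1.17 (KLHL40), so a wide spread was not particular to the members.

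**Figure D3:**
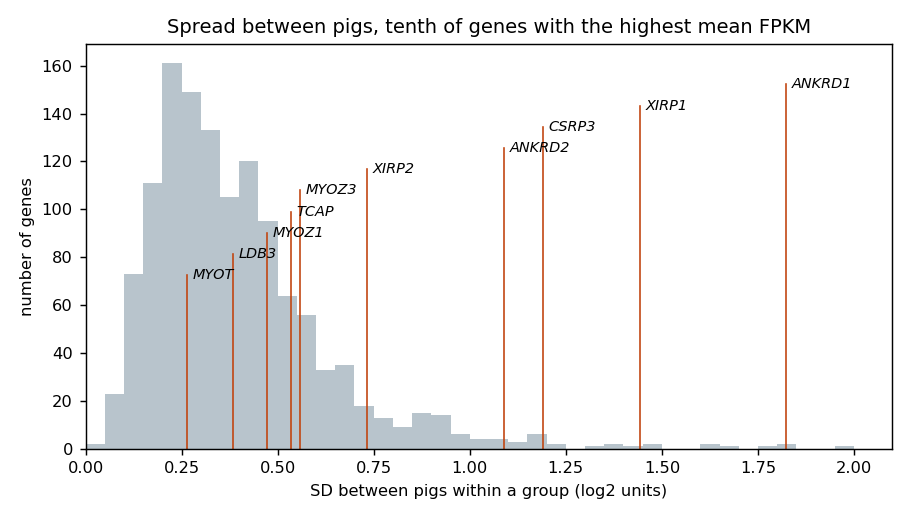
Histogram of the SD between pigs within a group, in log2 units, for the 1274 tested genes with the highest mean FPKM, with a line at the SD of each of the 10 genes. MYOT and LDB3 lie in the bulk of the histogram and ANKRD2, CSRP3, XIRP1 and ANKRD1 in its sparse right end; line heights have no meaning, and 6 genes with an SD of 2 or more are beyond the axis.

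The pigs that were high differed between members. LW119 was the highest pig for 4 members (ANKRD1, ANKRD2, CSRP3 and XIRP2) and LW70 for another 4 (MYOZ1, MYOZ3, MYOT and TCAP), both S-H. LW70 was at the same time the lowest pig for ANKRD1 and XIRP1, and LW119 the lowest for MYOT. LW88 was the highest for XIRP1 and LW90 for LDB3. The median-ratio size factors of the libraries were 1.15 for LW119, the highest of the 6, 0.969 for LW70 and between 0.808 and 1.13 for the other pigs, and their part in this was not tested.

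Correlations of log2(FPKM + 0.1) between members were computed for the 45 pairs over the 6 pigs, with exact permutation tests over the 720 pairings. An exact p below 0.05 was found for 9 of the 45 pairs and for none a Benjamini-Hochberg adjusted p below 0.05, the smallest being 0.0938. ANKRD2 and CSRP3 had Pearson's r = 0.983 (exact permutation p = 0.00278) and Spearman's rho = 0.943 (exact permutation p = 0.0167), and r was 0.987 once the 2 pigs with the most extreme ANKRD2 were left out. ANKRD1 and XIRP1 had r = 0.899 (exact permutation p = 0.0236) and rho = 0.943 (exact permutation p = 0.0167), with 0.985 without the 2 farthest pigs. These were paired profiles with different pigs at the bottom, LW90 for the former pair and LW70 for the latter.

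MYOT ran opposite to ANKRD1: r was -0.977 (exact permutation p = 0.00417) and rho was -1 (exact permutation p = 0.00278), with -0.980 once the 2 pigs with the most extreme ANKRD1 were left out. Against XIRP1 the r of MYOT was -0.949 (exact permutation p = 0.00694) and rho was -0.943 (exact permutation p = 0.0167), with -0.931 without the 2 farthest pigs. The range of MYOT was small, so this concerns a change of 1.55-fold in MYOT beside one of 25.7-fold in ANKRD1. MYOZ1 and MYOZ3 had r = 0.946 (exact permutation p = 0.0306) but rho = 0.60 (exact permutation p = 0.242), and r fell to 0.0671 without the 2 farthest pigs, so that relation rested on LW70 and LW90. All pairs share the libraries, and the correlations describe these 6 pigs.

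**Figure D4:**
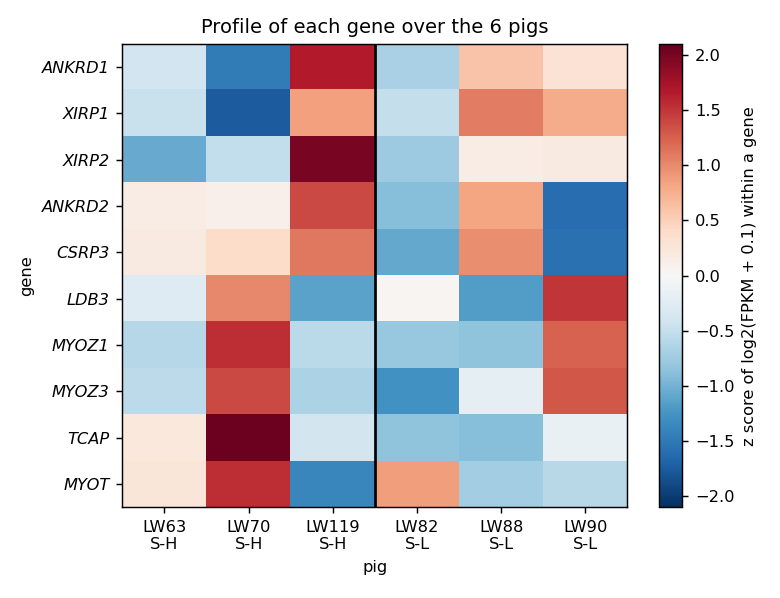
Profile of each of the 10 genes over the 6 pigs as z scores of log2(FPKM + 0.1) within a gene (red above and blue below the mean of that gene), with a black line between S-H and S-L. ANKRD1, XIRP1, XIRP2, ANKRD2 and CSRP3 all have high values in LW119. ANKRD2 and CSRP3 also share low values in LW82 and LW90, and the calsarcins, TCAP and MYOT are highest in LW70.

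Ratios of related genes within a pig do not depend on how a library was scaled. The log2 ratio of ANKRD1 to ANKRD2 was -2.29, -3.82 and -0.50 in LW63, LW70 and LW119 and -1.57, -1.52 and 0.62 in LW82, LW88 and LW90. ANKRD1 was thus below ANKRD2 in every pig but LW90, and the group difference of -1.38 had an exact permutation p of 0.40. The log2 ratio of XIRP1 to XIRP2 was negative in 6 of 6 pigs, from -3.93 in LW70 to -0.63 in LW88, with a group difference of -1.34 (exact permutation p = 0.30). For MYOZ1 to MYOZ3 it stayed between 3.12 and 3.62 in all 6 pigs, with a group difference of 0.05 (exact permutation p = 0.80). MYOZ2, the calsarcin of slow fibres and heart, was lower than MYOZ1 in all pigs, with log2 ratios from -6.30 to -4.60 and a group difference of 0.53 (exact permutation p = 0.40). None of the 4 ratios had a Benjamini-Hochberg adjusted p below 0.533.

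The gene levels are sums over transcripts, 30 for the 10 members, of which 27 were above 0 in at least 1 pig and 26 were tested. Of these 1 passed (against 503 of 40336 tested transcripts, 1.25%): TCAP-202, on chromosome 12 from 22651666 to 22653329. It measured 2.92, 2.16 and 8.37 FPKM in LW63, LW70 and LW119 and 0.858, 1.15 and 0.729 FPKM in LW82, LW88 and LW90, with no overlap between the groups (8% of tested transcripts were higher in S-H without overlap). Its log2 fold change was 1.95 (adjusted p = 0.782 by limma), but TCAP-202 carried only 0.315% of TCAP, and TCAP-201 the rest. It passed when LW70 was left out and in none of the other 5 limma fits without 1 pig, where its log2 fold change was between 1.39 and 2.13.

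Transcript usage varied among pigs in a few members. ANKRD1-202 carried 62.4% to 86.4% of ANKRD1, whereas ANKRD1-203 measured 81.9 FPKM in LW119 and 26.7 FPKM in LW88 and at most 1.70 FPKM in the other 4 pigs. XIRP1 was the sum of XIRP1-201 and of a transcript assembled by the authors that extends past it on both sides (chromosome 13, 23858258 to 23876841). XIRP1-201 made up 56.2%, 63.1% and 87.6% of the sum in LW63, LW70 and LW119 and 71.6%, 93.0% and 88.2% in LW82, LW88 and LW90, and it was largest in the 3 pigs with the most XIRP1. The assembled transcript itself ranged only from 6.99 to 26.9 FPKM. LDB3-202 was listed at 37.2 FPKM in LW90, at 4.05 FPKM in LW82 and at 0 in the other 4 pigs, while the 2 leading transcripts together held most of LDB3 in every pig. MYOZ3-203 measured 9.07 FPKM in LW70 and at most 0.685 FPKM elsewhere.

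For the 8 members with more than 1 tested transcript no difference of the leading transcript's share between the groups was detected, with exact permutation p values of 0.20 or more and Benjamini-Hochberg adjusted values of 1. MYOZ1 had 1 transcript. All of the signal of CSRP3 came from an assembled transcript (chromosome 2, 40215346 to 40240675), and the annotated CSRP3-201, which spans nearly the same stretch, was listed at 0 in all 6 pigs.

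**Figure D5:**
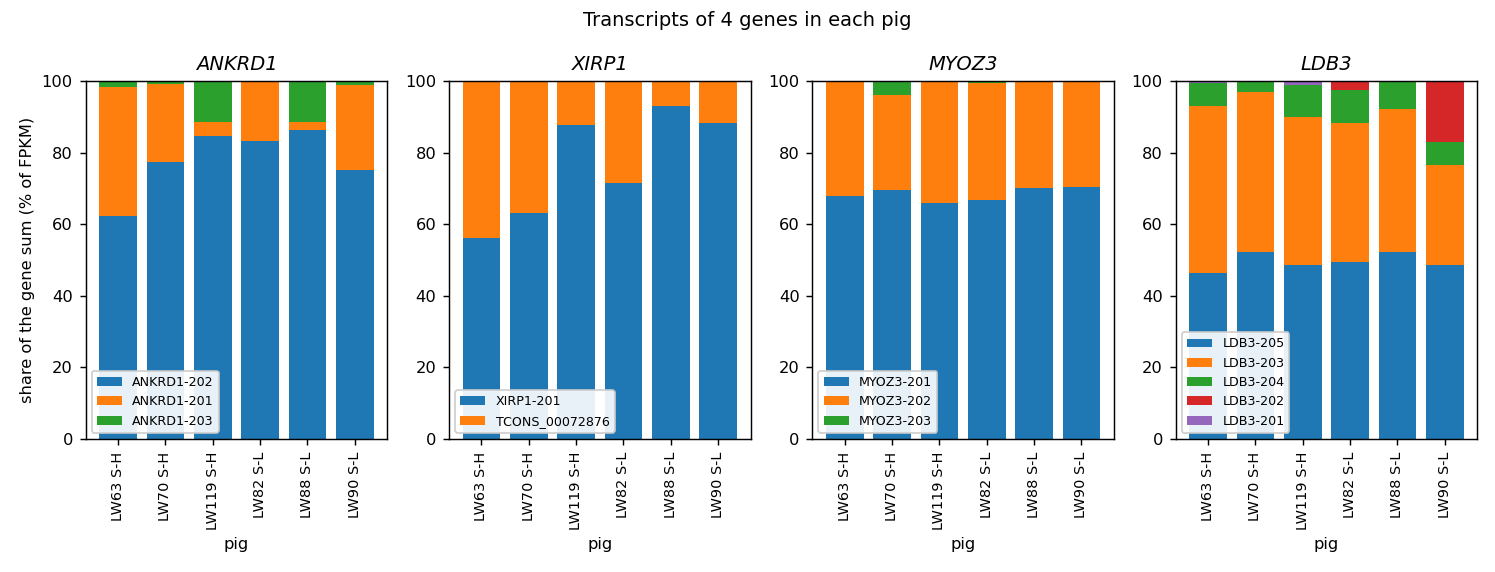
Share of each transcript in the FPKM sum of ANKRD1, XIRP1, MYOZ3 and LDB3 in each pig, in percent, with transcripts of a mean of at least 0.1 FPKM as stacked colours. The share of XIRP1-201 runs from 56.2% in LW63 to 93.0% in LW88, and LDB3-202 appears in LW82 and LW90 only.

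On the Sscrofa11.1 assembly, 4 members lie on chromosome 14: MYOZ1 from 76444540 to 76452799, LDB3 from 87644242 to 87722251, ANKRD1 from 102603777 to 102612839 and ANKRD2 from 108944534 to 108959382. CSRP3 (40215353 to 40240618), MYOT (139861004 to 139919095) and MYOZ3 (151635672 to 151654563) lie on chromosome 2, XIRP1 (23867478 to 23873589) on chromosome 13, XIRP2 (73433932 to 73741041) on chromosome 15 and TCAP (22651666 to 22653453) on chromosome 12. The spans of 4 members overlap another RefSeq gene, ANKRD1 with RPP30, ANKRD2 with HOGA1, MYOT with KLHL3 and LDB3 with OPN4. The libraries were strand-specific, but whether counting used the strand was not given in the sources used here.

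Of the other Z-disc proteins of the list none passed (0 of 34 tested, against 1.35% of all tested genes). Their median log2 fold change was -0.02. At that share a count of 0 in so short a list says little about these genes. By limma 3 of the 34 had an unadjusted p below 0.05, against 8.15% of all tested genes. The levels of 3 of the 34 did not overlap between the groups, against 14.8% of all tested genes. ACTN3, the alpha-actinin of fast fibres, was at 126, 133 and 108 FPKM for LW63, LW70 and LW119 (S-H) and at 163, 230 and 267 FPKM for LW82, LW88 and LW90 (S-L), without overlap (log2 fold change -0.82 ± 0.26 SE, adjusted p = 0.580 by limma). PDLIM7, a PDZ and LIM protein, had a log2 fold change of -0.71 ± 0.27 (SE) and MYOZ2 one of 0.63 ± 0.25 (SE), both with an adjusted p of 0.597 by limma and without overlap. ACTN2, the alpha-actinin of all fibres, measured between 70.4 and 98.4 FPKM in S-H and between 81.2 and 100.2 FPKM in S-L. ANKRD23, the third ankyrin-repeat relative of ANKRD1, was at 572 ± 250 and 373 ± 42.3 FPKM and FHL1, a LIM protein, at 1695 ± 572 and 1237 ± 176 FPKM, without passing.

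KLHL40, a stabiliser of thin-filament proteins, had the profile most like that of ANKRD1 among 9023 genes with a mean of at least 1 FPKM (r = 0.997 over the 6 pigs), ahead of PRSS23 (0.991) and HECTD2 (0.988). It measured 77.6, 42.7 and 316 FPKM in LW63, LW70 and LW119 and 66.0, 174 and 134 FPKM in LW82, LW88 and LW90, in the same order of pigs as ANKRD1. In the list of other Z-disc proteins, 4 of 34 had an r above 0.9 with ANKRD1 (11.8%), against 1.59% of all tested genes: KLHL40, filamin C (FLNC), NRAP and the small heat-shock protein HSPB8. These 4, named after their values were seen, had SDs between pigs from 0.917 to 1.17. FLNC, for example, measured 486, 304 and 1418 FPKM in the S-H pigs and 392, 1175 and 520 FPKM in the S-L pigs. With ANKRD2 or with MYOZ1, 0 of 34 had an r above 0.9, against 2.93% and 0.463% of all tested genes. The genes most like the mean z score of the 10 members were PET100 (r = 0.978), MASP1 (0.977) and EIF3F (0.976), and these correlations were used only to rank genes.

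Of the giant sarcomere proteins and their M-band partners 0 of 13 passed, against 1.35% of all tested genes. Their median log2 fold change was -0.06. Titin itself was not found among the genes and was not tested. MYBPC1, a myosin-binding protein typical of slow fibres, had a log2 fold change of 0.55 ± 0.37 (SE, adjusted p = 0.675 by limma). Of the calcineurin and NFAT genes, the pathway that calsarcins restrain, 0 of 11 passed (against 1.35% of all tested genes), with a median of -0.16. NFATC2 (-1.02 ± 0.36 SE, adjusted p = 0.580 by limma) and NFATC1 (-0.68 ± 0.28 SE, adjusted p = 0.608 by limma) had the lowest p and neither overlapped between the groups, both with lower values in S-H. In this list 3 of 11 genes did not overlap, against 14.8% of all tested genes. RCAN1, a calcineurin inhibitor that is itself a known calcineurin target, was named after its values were seen: it measured 8.76, 5.04 and 43.0 FPKM in LW63, LW70 and LW119 and 8.07, 24.7 and 21.9 FPKM in LW82, LW88 and LW90, and was the 1 of 11 with an r above 0.9 with ANKRD1.

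Among genes of the SRF and YAP response to mechanical load, 1 of 18 passed with a lower level in S-H and 0 with a higher one. Of all tested genes 0.188% passed with a lower level and 1.16% with a higher one. The median log2 fold change of the list was -0.06, and a single call in it is no result about the list. The gene that passed was CCN2, a secreted matrix protein and textbook YAP target, at 20.3, 13.2 and 25.9 FPKM in the S-H pigs and 31.3, 59.9 and 51.4 FPKM in the S-L pigs (log2 fold change -1.26 ± 0.33 SE, adjusted p = 0.540 by limma). VGLL2, a muscle cofactor of TEAD, had the next lowest p (-0.95 ± 0.28 SE, adjusted p = 0.576 by limma) but missed the fold threshold. CCN2 did not pass in TPM, with the leading transcript in place of the gene sum, or without LW70 (-0.996), LW88 (-1.07) or LW90 (-1.18). ABRA, an actin-binding activator of SRF, was at 101 ± 54.9 FPKM in S-H and 137 ± 76.7 FPKM in S-L (SD, n = 3).

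All 8 slow-fibre markers had a positive log2 fold change (median 0.47) and all 9 fast-fibre markers a negative one (median -0.53). Past the thresholds was 1 of the 17, the fast-fibre calcium buffer PVALB, against 1.35% of all tested genes. With the slow-minus-fast marker score of each pig as a covariate, the log2 fold changes were 2.04 for ANKRD2, 2.38 for CSRP3, 1.98 for ANKRD1 and 0.86 for XIRP1, and none passed. ANKRD1 and XIRP1 thereby changed sign, with intervals that crossed 0. The fast troponin TNNI2 was listed at 30.6 to 720 FPKM in 4 pigs and at 4210 and 4451 FPKM in LW88 and LW90, but the score was also lowest in these last pigs when TNNI2 was left out (-1.40 in LW88 and -1.21 in LW90, against -0.22 to 0.43 in the others). Without TNNI2 in the score the values were 2.32 for ANKRD2, 2.83 for CSRP3, 2.39 for ANKRD1 and 1.47 for XIRP1, again without passing. The intervals were -1.40 to 6.18 for ANKRD1 and -1.24 to 4.18 for XIRP1. That score was 0.21 to 0.43 in the S-H pigs and -1.40 to -0.22 in the S-L pigs. It did not overlap between the groups. With TNNI2 the score was 0.17 to 0.82 in S-H and -1.62 to 0.31 in S-L, and LW82 lay above LW119. As both forms of the score ran largely with the group, the parts of fibre type and group cannot be told apart.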

How the data were processed

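RNA from the LD muscle of 6 castrated male pigs was measured, with 1 library per pig, and groups were taken from the labels. As the paper describes, the authors depleted ribosomal RNA, filtered the reads, used Hisat2 to map them to Sus scrofa 11.1 and StringTie to assemble transcripts and estimate their levels. The deposited values are FPKM per transcript from the authors, except that 21104 Ensembl transcripts without a symbol, none of them from a member, were judged from their values to hold TPM and were converted (172 genes passed, against 177 with values as deposited). Gene levels were sums over the transcripts of a gene, assembled ones included. With FPKM in place of counts the read count behind a value is not given, and precision comes from the spread among the 3 pigs of a group.

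Genes with a mean of at least 0.1 FPKM were tested on log2(FPKM + 0.1), which understates changes of low genes, with limma 3.58.1 in R 4.3.3 (variance trend, Benjamini-Hochberg adjustment over all tested genes). edgeR, used by the authors, needs counts. Tested on simulated data for S-H against S-L with a log2 change of 2, the gene step over 12741 genes recovered 184 of 200 changed genes and passed 74 of 12541 unchanged ones. Gene types came from RefSeq, and ANKRD2, which has no entry there, was added as protein-coding. Ratios, shares and correlations used exact two-sided permutation tests (Python 3.11.15, scipy 1.17.1).

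The members, the gene lists and the rule for naming genes were chosen with earlier results of these data known. Named were the members, 6 relatives or partners (MYOZ2, ANKRD23, ACTN2, ACTN3, ABRA and FHL1), in each pathway list the genes that passed or else the 2 with the lowest p, and the 3 genes most like ANKRD1 and most like the mean of the members. Of these, 1 gene is not reported here. List symbols missing from the table were looked up by ID and RefSeq position after the data were seen. Alternatives changed the pseudocount, filter, scaling, variance model, gene set, transcript choice and pigs. Markers of other cell types gave medians of 0.45 (fibroblast), 0.09 (endothelial, where CLDN5 passed), 0.28 (macrophage and leukocyte), 0.15 (smooth and cardiac muscle) and 0.54 (erythrocyte) on the log2 fold change scale.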

Additional observations from a re-analysis of the deposited data

How the results depend on the processing

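The number of members that passed, 0 of 10, stayed at 0 under every other pseudocount, filter, library scaling, variance model and gene set tried. It did not stay at 0 relative to the muscle markers, as given below. The number ranged from 0 to 2 when 1 pig was left out (XIRP1 without LW119, and ANKRD2 and CSRP3 without LW88). Of all tested genes, 224 of 12674 passed without LW119 and 218 of 12771 without LW88, against 172 of 12741 with all pigs. Relative to the skeletal muscle markers of the same pig, ANKRD2 (1.34) and CSRP3 (1.49) passed, and without ACTA1 in that reference (an alternative chosen after seeing the data) ANKRD2 (1.14), CSRP3 (1.29) and XIRP1 (-1.20) passed. The share of all tested genes that passed in these fits is not given here, so these calls have no background beside them. In these fits limma's prior degrees of freedom rose from 5.91 to 134.1 and 148.1, so the standard errors were drawn close to a common value. They became smaller than before for ANKRD2, CSRP3 and XIRP1 and larger for MYOT and LDB3. In TPM the prior degrees of freedom were 6.94 and with median-ratio size factors 4.58, and the cause of the rise was not tested. The other Z-disc proteins that passed, 0, became 1 with quantile normalization, 2 with the highest transcript of a gene, 3 at an unadjusted p below 0.05 and 0 to 1 without a pig. For the mechanical response and calcineurin genes 1 became 0 in TPM, 3 with median-ratio size factors, 3 with quantile normalization, 0 at an adjusted p below 0.05, 5 at an unadjusted p below 0.05 and 0 to 2 without a pig, and CCN2 itself was lost in TPM, with the highest transcript and without LW70, LW88 or LW90. The 1 member transcript became 0 with a pseudocount of 1, 0 with a minimum of 1 FPKM, 0 without a trend, 0 in TPM, 0 with median-ratio size factors and 0 to 3 without a pig. Without LW70 these were TCAP-202, LDB3-201 and ANKRD2-202, and without LW88 the assembled CSRP3 transcript and LDB3-202.

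Small log2 fold changes changed sign. With median-ratio size factors XIRP2 was -0.053, MYOZ1 -0.12, MYOZ3 -0.17 and MYOT -0.16, and with quantile normalization XIRP2 was -0.12, MYOZ3 -0.16 and MYOT -0.19. LDB3 was 0.054 in TPM and 0.095 relative to the muscle markers. With the slow-minus-fast score as a covariate ANKRD1 was 1.98, XIRP1 0.86 and MYOT -0.30, and without TNNI2 in it (also chosen after seeing the data) 2.39, 1.47 and -0.40. Without 1 pig the ranges were -1.51 to 0.83 for ANKRD1, 0.61 to 1.91 for ANKRD2, 0.72 to 2.21 for CSRP3, -2.04 to -0.32 for XIRP1, 0.31 to 1.0 for TCAP, -0.39 to 0.53 for XIRP2, -0.18 to 0.37 for MYOZ1, -0.25 to 0.36 for MYOZ3, -0.088 to 0.23 for MYOT and -0.29 to 0.14 for LDB3. The difference in the share of TCAP-201 ranged from -0.558 to -0.0688 percentage points, the latter without LW119. The cause of these changes was not tested. Over all results and settings, 318 values kept direction and call or moved by less than the spread. Another 28 moved, namely counts of passing genes or transcripts that changed and the share of TCAP-201 without LW119. A further 28 changed sign and 8 passed only under the alternative. No paired analysis was possible because the pigs are separate animals and the labels give no number shared between the groups. The paper gives the reads of each library but not the counts per transcript, so low transcripts such as TCAP-202 carry an unknown counting error.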
